A study of Homo sapiens with 6 samples.

Results

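The long noncoding RNAs MALAT1, NEAT1, GAS5, SNHG1, DANCR, TUG1, PVT1, H19, MEG3 and HOTAIR, all described in breast cancer, were followed in MDA-MB231 cells with and without an shRNA against Ror1. They were chosen by name and not by a rule on their values, though earlier results of these data were known. Each had 1 row among the 57445 genes of the expression table, so that all 10 were found. MDA-MB231 is a cultured line from a triple-negative breast tumour, and Ror1 is a receptor of non-canonical Wnt signaling. The control group, shCTL, carried a pGIPZ lentiviral vector with a non-silencing shRNA, which the sample labels call an empty vector, and the shRor1 group carried the same vector with a hairpin against ROR1. Both groups were selected with 2 µg/ml puromycin and comprised 3 libraries each, sequenced as single reads of 50 bases. The control columns of the table also bear the word DMSO, which the shRor1 columns do not. If the solvent was given to the controls alone, its effect and that of the hairpin cannot be told apart. The 3 columns of a group share 1 header, so libraries are called 1, 2 and 3 by their order in the table, which has no stated meaning. No source used here states that the libraries came from separate cultures, and p-values therefore measure the spread between libraries, which may be technical.

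Long noncoding RNAs are transcripts that act without being translated, by holding proteins together, by bringing them to chromatin, by binding microRNAs, or by carrying small RNAs in their introns. MALAT1 gathers in nuclear speckles, where splicing factors are stored, and NEAT1 is the scaffold of paraspeckles, nuclear bodies built on its long isoform. GAS5, SNHG1 and DANCR are spliced host genes whose introns carry small nucleolar RNAs (snoRNAs), guides for the modification of ribosomal and other RNAs. PVT1 lies beside MYC, H19 and MEG3 are imprinted and expressed from the maternal allele, and HOTAIR is made in the HOXC cluster and has been described as a partner of Polycomb proteins.

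The sequences that end MALAT1 and the long isoform of NEAT1 are shown because they carry a feature that the 2 nuclear RNAs share, an unusual 3′ end. In place of a poly(A) tail, 2 stretches rich in uridine and 1 rich in adenosine fold into a triple helix after RNase P has cut the transcript. Both genes lie on chromosome 11, on the plus strand, and the start of MALAT1 is 52099 bases beyond the end of NEAT1. Capitals mark the words TTTCTTTT, TTTGCTTTT and AAAAGCAAA, written as DNA from 5′ to 3′ on GRCh37, at chr11:65273499-65273587 for MALAT1 and at chr11:65212921-65213011 for NEAT1.
MALAT1: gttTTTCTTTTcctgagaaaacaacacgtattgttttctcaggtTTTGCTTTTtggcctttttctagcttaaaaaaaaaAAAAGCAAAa
NEAT1: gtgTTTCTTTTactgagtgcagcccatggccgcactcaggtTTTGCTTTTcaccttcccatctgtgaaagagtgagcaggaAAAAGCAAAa

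In this order on the transcript strand, with 5 to 60 bases between neighbouring words, the words were found in 4 of 254413 annotated transcripts (0.00157%), and these belonged to 2 genes, MALAT1 and NEAT1. The third word ended 1958 bases before the annotated end of MALAT1 and 1 base before that of NEAT1. The labels name the RNA as polyA RNA, whereas the paper names a TruSeq Stranded Total RNA kit, started from 1000 ng of total RNA. These statements conflict, and how RNAs without a tail were captured is therefore not settled by the sources used here.

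Sequences of hosted small RNAs that had a row beside their host are shown next. SNORD78 lies in an intron of GAS5 (GRCh37 chr1:173834760-173834824, minus strand), and capitals mark TGATG within its first 15 and CTGA within its last 15 bases, the letters of the C and D boxes. SNORA26 lies in an intron of DANCR (GRCh37 chr4:53579416-53579537, plus strand), and capitals mark ACA 3 bases before its end. The first pattern was found in 17.6% and the second in 19.6% of 1460 annotated snoRNA transcripts. The mature microRNA of MIR4449, which lies in an intron of DANCR as well (GRCh37 chr4:53578849-53578914, plus strand), was taken from RefSeq (GRCh38.p14), with its seed, bases 2 to 8, in capitals.
SNORD78: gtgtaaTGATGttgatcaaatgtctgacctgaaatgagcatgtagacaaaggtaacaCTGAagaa
SNORA26: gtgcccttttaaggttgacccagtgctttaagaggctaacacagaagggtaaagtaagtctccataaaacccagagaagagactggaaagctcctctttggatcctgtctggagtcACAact
hsa-miR-4449: cGUCCCGGggcugcgcgaggca

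Expression was given as TPM, the share of transcripts out of 1000000 after correction for transcript length, so that levels of different genes can be set side by side. This is less certain for the short genes of small RNAs, and for MALAT1 and the long isoform of NEAT1, whose capture is not settled. Read depth cannot be read from TPM, and the mapped reads that the study lists for each library could not be tied to single columns. Between 16036 and 17033 genes per library reached 1 TPM. ROR1 itself (ENSG00000185483.7) had 15.42, 13.49 and 20.56 TPM in shCTL and 9.34, 11.93 and 14.85 TPM in shRor1, and the groups overlapped. Its log2 fold change of -0.42 (SE 0.20) did not pass the test (limma, Benjamini-Hochberg adjusted p = 0.984). The paper reports a stable knockdown and shows Ror1 protein in both kinds of cells by western blot, whereas the values here are of RNA only. The markers of the line (VIM, CD44, KRT8, KRT18, EGFR, CAV1 and AXL) summed to 4879 to 4994 TPM in shCTL and 4898 to 5138 TPM in shRor1, with all 7 measured. Of the hormone receptors, ESR1 did not exceed 0.21 TPM and PGR did not exceed 0.01 TPM in any library. The 7 luminal markers summed to 13.2 to 18.6 TPM in shCTL and 13.9 to 27.9 TPM in shRor1, and the highest sum went with 15.26 TPM of TFF1 in shRor1 library 2. Markers of blood, endothelial and stromal cells, of which 6 of 7 had a row, summed to at most 2.59 TPM.

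The snoRNA hosts GAS5 and SNHG1 were the most abundant of the RNAs, and H19, MEG3 and HOTAIR were near 0. Averaged over all 6 libraries, GAS5 was at 602 TPM and SNHG1 at 347.5 TPM, followed by TUG1 at 85.8, NEAT1 at 79.4, DANCR at 73.4, PVT1 at 48.6 and MALAT1 at 24.7 TPM. H19 (0.41 TPM), MEG3 (0.218 TPM) and HOTAIR (0.005 TPM) stayed below 1 TPM in every library. GAS5 ranked 221st and SNHG1 398th of all 57445 genes. They ranked 3rd and 4th of 12375 genes, those annotated as long noncoding RNAs together with TUG1. MALAT1 ranked 5942nd of all genes, a rank that may depend on how it was captured.

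Some neighbours in this order could not be separated. TUG1 exceeded NEAT1 in 4 of 6 libraries and NEAT1 exceeded DANCR in 2 of 6, with overlapping ranges, and H19 exceeded MEG3 in 5 of 6, again with overlapping ranges. Every other neighbouring pair kept its order in 6 of 6 libraries with ranges that did not overlap. Together the 10 RNAs took 0.133%, 0.121% and 0.123% of all TPM in shCTL and 0.133%, 0.122% and 0.124% in shRor1, and GAS5 with SNHG1 made up 71.7% to 78.3% of that. The summed levels of the groups overlapped, between 1210 and 1334 TPM.

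**Figure D1:**
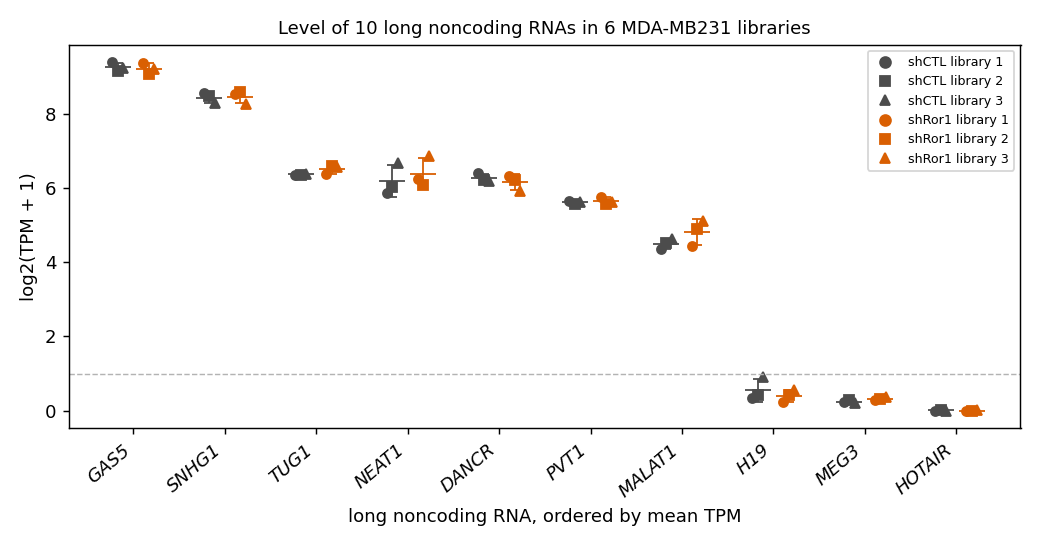
Level of each long noncoding RNA on the log2(TPM + 1) scale (y axis), ordered by mean TPM (x axis), with 1 symbol per library, black for shCTL and orange for shRor1. Horizontal ticks with bars are the mean and SD of 3 libraries and the dashed line marks 1 TPM, above which 7 RNAs lay in all libraries, while H19, MEG3 and HOTAIR lay below it in all.

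No difference between shRor1 and shCTL passed the test for any of the RNAs. For this comparison a gene needed at least 1 TPM in at least 3 of 6 libraries, which 7 of the 10 RNAs and 16554 genes in all reached. Of the 7, 5 had a higher and 2 a lower mean in shRor1, and 0 passed an adjusted p of 0.05 (limma on log2(TPM + 1), Benjamini-Hochberg over all genes, adjusted p from 0.984 to 0.994). Of all tested genes, 0 (0%) passed as well. The paper, with negative binomial models in edgeR, reports 2 significant genes for this comparison, AGR2 and an uncharacterized gene. That fit was not repeated here, since the deposited values are TPM. At an unadjusted p below 0.05, 0 of the 7 RNAs and 472 genes (2.85%) were counted, and the groups did not overlap for 0 of the 10 RNAs and for 1288 tested genes (7.78%). The median log2 fold change was 0.04 over the 7 RNAs and 0.05 over all tested genes, 67.0% of which were higher in shRor1. In an exact two-sided permutation test of 3 against 3 libraries, which cannot go below p = 0.1, the smallest p among the 10 RNAs was 0.2.

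**Figure D2:**
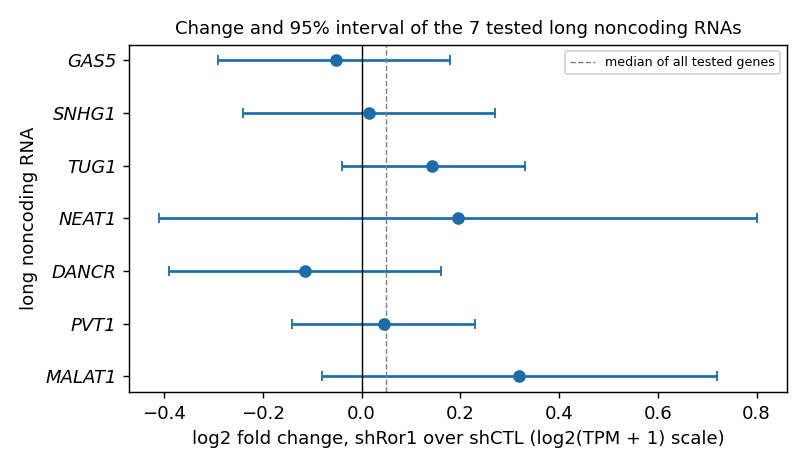
Log2 fold change of shRor1 over shCTL on the log2(TPM + 1) scale (x axis) for the 7 tested long noncoding RNAs (y axis), with points for the estimate and bars for the 95% interval. All 7 intervals include 0, the widest being that of NEAT1 (-0.41 to 0.80), and the dashed line is the median of all tested genes (0.05).

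MALAT1, the RNA of nuclear speckles (ENSG00000251562.3, GRCh37 chr11:65265111-65275544, plus strand, 1 exon), had 19.51, 21.74 and 23.79 TPM in shCTL and 20.74, 28.68 and 33.81 TPM in shRor1. Libraries 2 and 3 of shRor1 lay above all controls, whereas library 1 lay between them, so the groups overlapped. The means were 21.7 ± 2.14 TPM and 27.7 ± 6.59 TPM (SD, n = 3), or 128% of control. On the log2 scale this was a difference of 0.32 (SE 0.17, 95% interval -0.08 to 0.72, limma adjusted p = 0.984), the largest estimate among the 7 tested RNAs. Without shRor1 library 1 the difference was 0.51 (limma unadjusted p = 0.00518, adjusted p = 0.435), and without shRor1 library 3 it was 0.17. In the fit without shRor1 library 1, 1692 of 16306 genes had an unadjusted p below 0.05. Changes from a fold of 0.94 to 1.65 lie within the interval.

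NEAT1, the scaffold of paraspeckles (ENSG00000245532.4, GRCh37 chr11:65190245-65213011, plus strand, 1 exon in its 22743-base canonical transcript), had 56.73, 64.31 and 101.19 TPM in shCTL and 73.93, 66.12 and 114.27 TPM in shRor1. One library of each group, the third, stood well above the other two, and the groups overlapped. The log2 difference was 0.20 (SE 0.26, 95% interval -0.41 to 0.80, limma adjusted p = 0.984), and without shRor1 library 3 it was -0.04. The row sums the short isoform with a poly(A) tail and the long one, and the table does not separate them.

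The spread of NEAT1 between libraries was wider than its difference between groups. Its highest library was 2.01 times its lowest, with 1.78 times within shCTL and 1.73 times within shRor1. Its residual SD within groups was 0.423 on the log2 scale, and 1.6% of the 6736 tested genes with a mean of at least 20 TPM had a larger one. For MALAT1 this share was 6.78%, while for PVT1, with a residual SD of 0.073, it was 81.4%. MALAT1 also had its highest value of each group in the third library, and that library held the most genes at 1 TPM in its group (16597 in shCTL and 17033 in shRor1). The part of this in the values of NEAT1 and MALAT1 was not tested.

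Over the 6 libraries MALAT1 and NEAT1 had a Pearson's r of 0.66 (exact permutation p = 0.138, adjusted 0.414 over 3 pairs) and a Spearman's rho of 0.71 (exact permutation p = 0.136, adjusted 0.408). Without shRor1 libraries 2 and 3, the farthest from the median of MALAT1, r was 0.89 over 4 libraries. Within groups r was 0.93 in shCTL and 0.62 in shRor1, from 3 libraries each. The relation did not pass the test, and the ratio of NEAT1 to MALAT1 ran from 2.31 to 4.25.

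**Figure D3:**
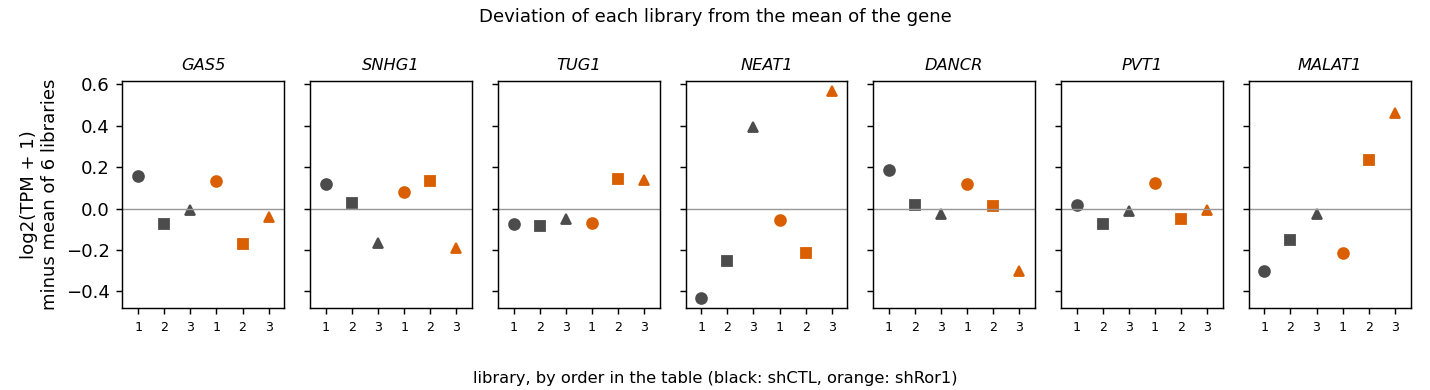
Deviation of each library from the mean of the 6 libraries in log2(TPM + 1) (y axis) for the 7 tested long noncoding RNAs, with libraries in table order (x axis), black for shCTL and orange for shRor1. NEAT1 and MALAT1 have their highest value of each group in library 3, GAS5 and DANCR in library 1, and PVT1 has the smallest residual SD within groups (0.073).

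GAS5, which accumulates in growth-arrested cells and hosts box C/D snoRNAs (ENSG00000234741.3, GRCh37 chr1:173827697-173838020, minus strand, 12 exons), had 668.60, 570.62 and 597.68 TPM in shCTL and 657.89, 533.07 and 583.31 TPM in shRor1. The 2 groups overlapped, and library 1 was the highest in both. The means of 612 ± 50.6 and 591 ± 62.8 TPM (SD, n = 3) gave a log2 difference of -0.05 (SE 0.10, limma adjusted p = 0.986). The 95% interval ran from -0.29 to 0.18, a fold of 0.82 to 1.13.

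SNHG1, also a host of box C/D snoRNAs (ENSG00000255717.2, GRCh37 chr11:62619450-62623425, minus strand, 11 exons), had 375.21, 352.43 and 308.16 TPM in shCTL and 365.32, 380.10 and 303.62 TPM in shRor1. Library 3 was the lowest in both groups, which overlapped. The log2 difference was 0.02 (SE 0.11, 95% interval -0.24 to 0.27, limma adjusted p = 0.994), a fold of 0.85 to 1.21 at its bounds, and its sign turned under median ratio scaling, where it was -0.045. GAS5 exceeded SNHG1 1.40 to 1.94 times in the 6 libraries.

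DANCR, an RNA that holds back differentiation and hosts the box H/ACA snoRNA SNORA26 (ENSG00000226950.2, GRCh37 chr4:53578492-53589790, plus strand, 4 exons), had 83.14, 73.77 and 71.54 TPM in shCTL and 79.26, 73.55 and 59.10 TPM in shRor1. Library 3 of shRor1 lay below all others and the remaining libraries of both groups overlapped. Without it the log2 difference, -0.11 with all libraries (SE 0.12, 95% interval -0.39 to 0.16, limma adjusted p = 0.984), was 0.01.

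No relation between the snoRNA hosts across libraries passed the test. GAS5 and SNHG1 had an r of 0.14 (exact permutation p = 0.797, also after adjustment over 3 pairs) and a rho of -0.03 (exact permutation p = 1), and GAS5 and DANCR an r of 0.52 (exact permutation p = 0.308, adjusted 0.462) and a rho of 0.54 (exact permutation p = 0.297, adjusted 0.446). Without library 1 of each group, the libraries farthest from the median of GAS5, r was -0.92 and -0.39 over 4 libraries. These values from 4 libraries were not tested. Within shCTL r was 0.52 for the first and 0.89 for the second pair, and within shRor1 it was -0.08 and 0.32, from 3 libraries each.

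Small RNAs annotated inside these genes on the same strand numbered 9, of which 7 were among the 28 small RNAs listed for them, and the remaining listed ones were not analysed here. SNORD78, in its GAS5 intron, had 9.06, 16.80 and 10.67 TPM in shCTL and 8.93, 24.68 and 7.02 TPM in shRor1. Library 2 was the highest of each group for SNORD78, whereas for GAS5 it was the lowest. The log2 difference of SNORD78 was -0.01 (SE 0.43, limma adjusted p = 0.997).

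SNORA26, in its DANCR intron, had 5.37, 9.76 and 7.03 TPM in shCTL and 7.52, 6.70 and 4.24 TPM in shRor1. The groups overlapped, and the log2 difference was -0.23 (SE 0.24, limma adjusted p = 0.984). The third hosted gene that passed the expression minimum was RNU1-106P, a U1 snRNA pseudogene in a PVT1 intron, with 0.87 to 3.00 TPM in shCTL and 1.29 to 4.16 TPM in shRor1 (log2 difference 0.15, SE 0.37, limma adjusted p = 0.986). As a copy of a multigene family it may share reads with others and is uncertain.

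MIR4449, the microRNA gene of 66 bases in DANCR, was listed at 0 in all 3 shCTL libraries and at 0.96, 1.40 and 1.13 TPM in shRor1. The groups thus did not overlap. Values were given per gene, so the mature microRNA was not measured by itself. For so short a gene TPM is less certain, and the number of reads behind these values is not known. Whether the reads came from the microRNA or from the DANCR intron that holds it was not tested. The same pattern, 0 in every shCTL library and above 0 in every shRor1 library, was seen for 96 of the 39104 genes detected in any library (0.245%), and the opposite pattern for 97. MIR4449 did not reach 1 TPM in 3 libraries and was not part of the main test. With all detected genes included, its adjusted p was 0.181 (limma). The exact permutation p was 0.1, the smallest possible. MIR1205, in PVT1, was above 0 in 1 library of each group, and MIR1207 and MIR1208 in PVT1 and MIR770 and MIR2392 in MEG3 were listed at 0 throughout.

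TUG1, a widely expressed RNA first described as upregulated by taurine (ENSG00000253352.4, GRCh37 chr22:31365231-31375381, plus strand, 3 exons), had 81.11, 80.53 and 82.54 TPM in shCTL and 81.46, 94.63 and 94.36 TPM in shRor1. The controls lay close together, and shRor1 libraries 2 and 3 lay above them while library 1 lay among them. Means of 81.4 ± 1.03 and 90.15 ± 7.53 TPM (SD, n = 3) gave a log2 difference of 0.14 (SE 0.08, 95% interval -0.04 to 0.33, limma adjusted p = 0.984). Without shRor1 library 1 it was 0.21 (limma unadjusted p = 0.0144, adjusted p = 0.435), in the same fit in which 1692 of 16306 genes had an unadjusted p below 0.05. GENCODE 44 lists TUG1 as protein-coding, since an open reading frame has been annotated in it.

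Reads over TUG1 may be shared with 2 unnamed genes on its other strand. The library kit was a stranded one, but the sources used here do not state whether the strand was used in counting. One of them, ENSG00000269972, had 9.69, 10.26 and 8.69 TPM in shCTL and 8.90, 3.05 and 5.75 TPM in shRor1. Its groups overlapped, and its lowest values were in shRor1 libraries 2 and 3, where TUG1 was highest. The log2 difference was -0.70 (SE 0.29, limma unadjusted p = 0.0445, adjusted p = 0.984). The other, ENSG00000269987, had 7.90 to 10.30 TPM in shCTL and 9.17 to 10.75 TPM in shRor1. Its log2 difference was 0.16 (SE 0.13, limma adjusted p = 0.984), of the same sign as that of TUG1. Whether reads were shared was not tested.

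PVT1, which lies downstream of MYC and is often amplified with it (ENSG00000249859.3, GRCh37 chr8:128806772-129199347, plus strand, 11 exons), had 49.17, 45.97 and 48.16 TPM in shCTL and 52.97, 46.80 and 48.28 TPM in shRor1. It had the smallest residual SD of the 7 tested RNAs, and the groups overlapped. The log2 difference was 0.04 (SE 0.08, 95% interval -0.14 to 0.23, limma adjusted p = 0.986), a fold of 0.91 to 1.17 at its bounds. Under median ratio scaling it was -0.015. MYC had 100.91, 94.99 and 87.06 TPM in shCTL and 107.50, 91.78 and 80.85 TPM in shRor1, a log2 difference of -0.02 (SE 0.11, limma adjusted p = 0.992).

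H19, the maternally expressed imprinted RNA that carries miR-675 (ENSG00000130600.11, GRCh37 chr11:2016396-2025782, minus strand, 5 exons), had 0.27, 0.33 and 0.88 TPM in shCTL and 0.17, 0.34 and 0.47 TPM in shRor1. MEG3, the imprinted RNA of the DLK1 domain (ENSG00000214548.10, GRCh37 chr14:101245747-101327368, plus strand, 3 exons), had 0.17, 0.22 and 0.16 TPM in shCTL and 0.22, 0.24 and 0.30 TPM in shRor1. HOTAIR (ENSG00000228630.1, GRCh37 chr12:54356092-54368740, minus strand, 7 exons) was listed at 0.02 TPM in 1 shCTL and 0.01 TPM in 1 shRor1 library and at 0 in the other 4. The H19 groups overlapped, and the MEG3 groups met at 0.22 TPM.

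None of the 3 reached the expression minimum, and they were not part of the main test. Among the 22550 genes detected below that minimum the groups did not overlap for 1350 (5.99%), and for 0 of these 3 RNAs. With all detected genes included, the log2 difference was -0.15 (SE 0.17) for H19 and 0.08 (SE 0.05) for MEG3, each with an adjusted p of 0.921 (limma). Of their neighbours, IGF2, the imprinted partner of H19, did not exceed 0.54 TPM, whereas MRPL23, a mitochondrial ribosomal protein gene beside H19, was at 48.55 to 54.11 TPM. DLK1 was listed at 0 throughout, like HOXC11 and HOXC12 beside HOTAIR, and HOXC8 of the same cluster was at 0.90 to 1.33 TPM.

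Proteins and genes that act with these RNAs were followed in the same fit, and 0 of them passed the test in any list (0% of all genes passed). Of 18 paraspeckle proteins, the partners of NEAT1, 6 were higher and 12 lower in shRor1, with log2 fold changes from -0.13 to 0.10 and a median of -0.03. HNRNPA1 (2372 ± 59.1 and 2247 ± 113 TPM in shCTL and shRor1, SD, n = 3) and HNRNPK (808.4 ± 42.6 and 812.9 ± 49.9) were the most abundant, and EWSR1 had the smallest p (log2 -0.13, SE 0.085, limma adjusted p = 0.984). Of 16 nuclear speckle proteins, which share the speckles with MALAT1, 11 were higher and 5 lower, with a median of 0.05. SRSF2, SRSF3 and SRSF1, splicing factors at 374.7, 330.0 and 326.6 TPM in shRor1, were the most abundant. SON, a scaffold of the speckles, had 134.65, 138.54 and 141.25 TPM in shCTL and 147.78, 161.52 and 147.41 TPM in shRor1, groups that did not overlap, with a log2 difference of 0.14 (SE 0.07, limma adjusted p = 0.984).

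Of 19 other snoRNA host genes tested, 6 were higher and 13 lower in shRor1, with a median log2 fold change of -0.04 and a range from -0.20 to 0.19. The most abundant were RACK1 (2013 ± 73.3 and 1962 ± 166 TPM), EEF1B2 (1173 ± 108 and 1159 ± 87.0 TPM) and SNHG5 (1089 ± 118 and 998.8 ± 114 TPM), and SNHG20 had the smallest p (log2 0.19, SE 0.10, limma adjusted p = 0.984). Nonsense-mediated decay, which degrades GAS5 and other host transcripts, was represented by 13 factors, 7 higher and 6 lower with a median of 0.01. EIF4A3, MAGOH and SMG5 were the most abundant of them, with log2 differences of -0.08, -0.02 and -0.03. UPF2 had the smallest p (18.03, 16.73 and 17.41 TPM in shCTL and 18.04, 21.07 and 20.84 TPM in shRor1, log2 0.19, SE 0.09, limma adjusted p = 0.984).

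The 10 Polycomb and LSD1 proteins, described as partners of HOTAIR, were all tested, with 6 higher and 4 lower and a median of 0.02. RBBP7 (174.8 ± 6.85 and 177.2 ± 10.3 TPM), RBBP4 (91.01 ± 5.75 and 92.47 ± 12.5 TPM) and the methyltransferase EZH2 (79.33 ± 2.05 and 78.33 ± 1.23 TPM) were abundant in cells with almost no HOTAIR, and REST had the smallest p (log2 0.12, SE 0.10, limma adjusted p = 0.984). Of 9 tested neighbours, 5 were higher and 4 lower with a median of 0.01. SLC3A2, the amino acid transporter subunit next to SNHG1, had the most negative estimate (305.0 ± 52.8 and 259.4 ± 82.2 TPM, log2 -0.26, SE 0.21, limma adjusted p = 0.984). ZBTB37, which overlaps GAS5 on the other strand, had the smallest p of the neighbours (log2 0.21, SE 0.15, limma adjusted p = 0.984). The groups did not overlap for 7 of 85 tested genes in these lists, beside 7.78% of all tested genes. They included SON, SNHG20 and UPF2, and also NUDT21, RBM25 and SMG1, which are named here after their values were seen.

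**Figure D4:**
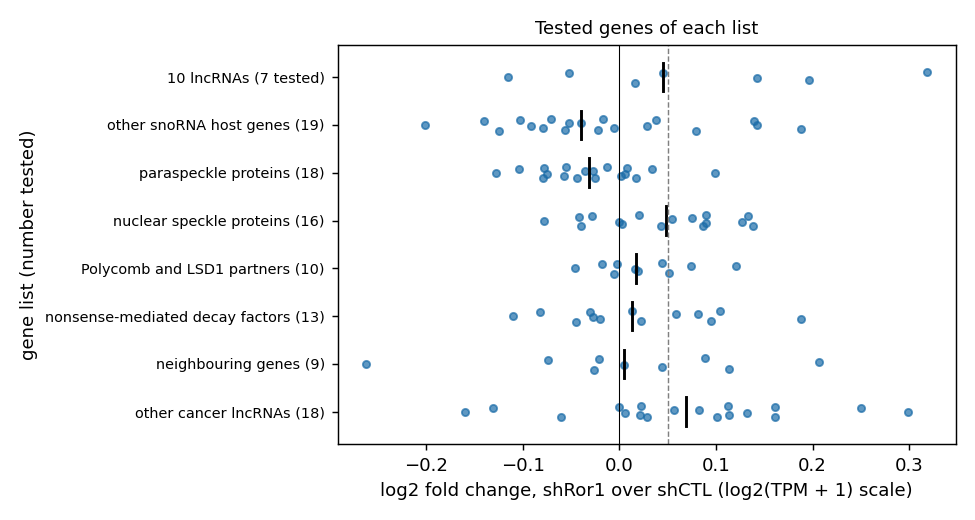
Log2 fold change of shRor1 over shCTL on the log2(TPM + 1) scale (x axis) for the tested genes among the long noncoding RNAs and in the lists of partners, neighbours and other long noncoding RNAs (y axis; marker lists are not drawn), with 1 point per gene, a black bar at the median of the list and a dashed line at the median of all tested genes (0.05). Vertical offsets within a list only separate the points. The medians drawn lie between -0.04 and 0.07.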

How the data were processed

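The authors sequenced RNA of MDA-MB231 cells in 6 libraries (3 shCTL and 3 shRor1). Per the paper's methods, reads were mapped to GRCh37 with STAR using Ensembl 73 and summarised per gene with RSEM (1.2.5 in the submitters' processing notes). The deposited values are TPM for each gene, as made by the authors, each column summing to about 1000000 (999999.43 to 1000000.81), so depth cannot be read from the table (the mapped reads listed in the paper name no column) and values are relative to the other genes of a library.

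Values were transformed to log2(TPM + 1) and genes that reached 1 TPM in 3 or more libraries were fitted with limma 3.58.1 in R 4.3.3 (condition as the only term, mean-variance trend, Benjamini-Hochberg at 0.05). The fit was tested on simulated data. On this scale fold changes of low genes are understated. Exact permutation tests went through all splits or orders of the 6 libraries in Python 3.11.15 with numpy 2.4.6, and scipy 1.17.1 gave the observed r, rho and ranks. Symbols, coordinates and exons came from a gene name table and GENCODE 44 on GRCh37, a later annotation than that of the authors, and 55022 of 57445 identifiers matched. The long noncoding RNAs and all lists were chosen with earlier results of these data known. Named were all 10 RNAs, ROR1, hosted small RNAs, defining markers and, per list, the 3 genes with the highest mean TPM and the gene with the smallest p, some of which are not reported here. Alternatives were another pseudocount (0.1), no filter, a mean of at least 5 TPM, quantile normalization, median ratio scaling, no trend, array weights, summed symbols and each library left out.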

Additional observations from a re-analysis of the deposited data

How the results depend on the processing

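No paired analysis was possible because no replicate number is given in the table's header. In 14 other fits, 6 of them without 1 library, 0 of the long noncoding RNAs passed the test, and 0 genes did except without shRor1 library 3, where 1 passed. Of 98 fold changes of the RNAs, 11 changed sign. Under median ratio scaling SNHG1 was at -0.045 and PVT1 at -0.015, and under array weights SNHG1 was at -0.007. Without 1 library, log2 fold changes ran from -0.131 to 0.020 for GAS5, -0.063 to 0.115 for SNHG1, -0.006 to 0.081 for PVT1, -0.037 to 0.441 for NEAT1, -0.202 to 0.007 for DANCR, 0.168 to 0.507 for MALAT1 and 0.106 to 0.213 for TUG1. Genes at an unadjusted p below 0.05 numbered 472, 1363 without a filter, 227 at a mean of at least 5 TPM, 859 under array weights and 275 to 1692 without 1 library, most without shRor1 library 1. The RNAs among them were MALAT1 under array weights, and MALAT1 and TUG1 without shRor1 library 1. Without the 2 libraries farthest from the median of the first-named RNA, r was 0.89 for MALAT1 with NEAT1, -0.92 for GAS5 with SNHG1 and -0.39 for GAS5 with DANCR. The median of all genes was 0.054 on the log2 scale, and 0.001 under quantile or median ratio scaling. The block by replicate number was not run.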

Other observations

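Of 40 other long noncoding RNAs described in tumours, 30 had a row and 18 were tested, 14 higher and 4 lower in shRor1 with a median log2 fold change of 0.07, and 0 passed the test (0% of all genes passed). NORAD, which binds Pumilio proteins, had 157.62, 129.62 and 151.63 TPM in shCTL and 157.57, 157.49 and 175.03 TPM in shRor1, a log2 difference of 0.16 (SE 0.09, limma adjusted p = 0.984), and its groups overlapped. CYTOR followed with 144.9 ± 12.8 and 138.9 ± 10.8 TPM (SD, n = 3) and OIP5-AS1 with 45.43 ± 0.898 and 48.95 ± 5.06 TPM. MIR31HG and HOTAIRM1 were listed at 0 in every library.

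Some low genes, named after their values were seen, did not overlap between groups, as was the case for 5.99% of the genes detected below the expression minimum and 7.78% of tested genes. TERC, the RNA component of telomerase, had 0.70, 0.97 and 0.74 TPM in shCTL and 0.28, 0.41 and 0.57 TPM in shRor1. HOXC10, near HOTAIR, had 0.79, 0.70 and 0.52 TPM in shCTL and 0.49, 0.50 and 0.39 TPM in shRor1. RNU4-25P, a U4 pseudogene on the other strand of PVT1, had 0.42, 1.24 and 0.91 TPM in shCTL and 0.16, 0 and 0.18 TPM in shRor1. TERC, HOXC10 and RNU4-25P lay below the expression minimum, and reads of RNU4-25P may be shared with its multigene family. CDKN2B-AS1, which was tested, had 0.93, 0.98 and 1.05 TPM in shCTL and 1.09, 1.33 and 1.25 TPM in shRor1 (log2 0.16, SE 0.13, limma adjusted p = 0.984).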
